A study of Mus musculus with 12 samples.

Results

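The proteasome is the barrel-shaped protease that degrades ubiquitin-tagged proteins, and its subunits are encoded by genes that are active in nearly every cell. Proteasome genes were taken here as genes whose symbol begins with Psma, Psmb, Psmc, Psmd, Psme, Psmf or Psmg followed by a digit, without the inducible subunits Psmb8 and Psmb9 and without pseudogenes. The rule gave 48 of the 19938 genes that the array annotation named by a single symbol, and 47 of them were among the 16721 genes with enough signal to be tested. Psma8, a subunit of the testis proteasome, was the exception: it read 5.29 to 5.63 over all arrays, while the signal needed lay at 5.69 to 5.94 depending on the array. The rule also took in Psmc3ip, a meiotic recombination factor, and Psme3ip1, a binding partner of the activator Psme3, which are not proteasome subunits. Both are included in every count over the members, and their own values are given with those of the activators.

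RNA abundance was measured on 12 microarrays of striatum from male mice aged 90 days, 3 arrays in each of 4 groups. The groups were HdhQ111/Q111 mice without mGluR5 (mGluR5-/-), HdhQ111/Q111 mice with it (mGluR5+/+), HdhQ20/Q20 mice without it and HdhQ20/Q20 mice with it. They are called Q111 mGluR5-/-, Q111 mGluR5+/+, Q20 mGluR5-/- and Q20 mGluR5+/+. Q111 and Q20 are knock-in alleles of the huntingtin gene with a long and a short glutamine repeat, present on both chromosomes, so that the control mice carry a knock-in allele as well. mGluR5, a metabotropic glutamate receptor abundant in striatal neurons, is encoded by Grm5. The strain background of every group was a mixture of 129, CD-1, C57BL/6 and FV. Whether a group's 3 arrays stand for different animals is not stated in the labels, so p-values measure the spread between arrays, which may be technical. In whole striatum, fewer cells of a type and less RNA per cell cannot be told apart.

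A core particle, the 20S, holds the proteolytic sites inside 2 outer rings of alpha subunits and 2 inner rings of beta subunits. A regulatory particle, the 19S, caps it. The base of the 19S contains ATPases that unfold substrates, and its lid contains the enzyme that removes ubiquitin. Dedicated chaperones assemble both particles, and alternative caps activate or restrain the core. When proteasomes are inhibited, the transcription factor Nrf1, encoded by Nfe2l1, raises the subunit genes together in mammalian cells. Ubiquitin and proteasome proteins have been found in the huntingtin inclusions of Huntington's disease.

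Signals are log2 values, so that a difference of 1 is a 2-fold change, and levels of different genes are not comparable because each has its own probes. Every difference is given as the first group minus the second, with its standard error from limma. A gene was called changed when its p-value, adjusted by Benjamini-Hochberg over all 16721 genes, was below 0.05. The Q111 effect was taken with mGluR5 (Q111 mGluR5+/+ minus Q20 mGluR5+/+) and without it (Q111 mGluR5-/- minus Q20 mGluR5-/-), and mGluR5 loss was taken in Q20 and in Q111 mice. The 2 average effects are the means of each pair, and the interaction is the loss in Q111 minus the loss in Q20.

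Grm5 read 11.07 ± 0.08 in Q111 mGluR5-/-, 11.94 ± 0.08 in Q111 mGluR5+/+, 11.06 ± 0.12 in Q20 mGluR5-/- and 12.00 ± 0.07 in Q20 mGluR5+/+ arrays (SD, n = 3 each). Its difference with mGluR5 loss was -0.87 ± 0.09 in Q111 mice (adjusted p = 0.00017) and -0.94 ± 0.09 in Q20 mice (adjusted p = 0.000189). This fits the mGluR5 labels, though the signal in mGluR5-/- arrays stayed far above the 5.69 to 5.94 needed for testing. Htt, the huntingtin gene, was not called in any comparison (average Q111 effect -0.15 ± 0.06, limma adjusted p = 0.344). Its level therefore does not check the Q111 and Q20 labels. Markers of striatal projection neurons were present at list means of 11.17 to 11.39 in all arrays, over 8 of 10 markers measured. No marker of that cell type, of oligodendrocytes, astrocytes, microglia, vessels or choroid plexus was called in the Q111 effect with mGluR5 or in the average Q111 effect (43 markers tested). Of all genes, 0.574% and 1.32% were called in these 2 comparisons. In the Q111 effect without mGluR5 1 vascular marker, Abcc9, was called, beside 0.885% of all genes. There 12 of the 43 markers had an unadjusted limma p below 0.05, beside 9.44% of all genes.

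Shown first are promoter sequences of members whose differences are described below, because subunit genes are known for shared promoter elements. The windows are those of RefSeq on GRCm38.p6, 250 bases before to 50 after each gene start, and 40 of the 48 genes had one. Among the members without an entry are Psmb1 and Psmb7. The stretch upstream of Psmd6 (chr14:14120946-14121195, minus strand) ends at the base before the gene start and is printed 5′ to 3′ in the direction of the gene. Capitals mark CCGGAAG, a motif of the kind bound by ETS family factors.

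Psmd6: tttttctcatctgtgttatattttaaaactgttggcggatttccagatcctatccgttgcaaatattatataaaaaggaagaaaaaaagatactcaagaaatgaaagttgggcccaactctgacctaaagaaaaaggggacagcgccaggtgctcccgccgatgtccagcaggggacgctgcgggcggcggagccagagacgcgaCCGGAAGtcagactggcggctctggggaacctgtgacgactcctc

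The next 6 windows, of 30 bases each, show the same motif in either orientation in 5 genes, printed in the direction of the gene (CTTCCGG is its reverse complement). In Psmb6 the capitals mark a match to TGACNNNGC, the core of the antioxidant response type of element that Nrf1 binds. Psmg1 lies at chr16:95991011-95991040 (minus strand), Psmg3 at chr5:139826872-139826901 (minus strand), Psmd2 at chr16:20651615-20651644 (plus strand) and Psmc1 at chr12:100110163-100110192 (plus strand). Psmd11 lies at chr11:80428593-80428622 (plus strand) and Psmb6 at chr11:70525338-70525367 (plus strand).
Psmg1: ctcgcggcggaCCGGAAGctcttaggttct
Psmg3: acggacaggaaCCGGAAGttctcgccggga
Psmd2: tccgcagggcgCTTCCGGtctggaggacaa
Psmc1: tggtggatgcaCTTCCGGcggtggcgattt
Psmd11: cgagggcgggtCTTCCGGgtgtgtgtttcc
Psmb6: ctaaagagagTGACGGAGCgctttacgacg

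Over both strands, CCGGAAG was found in 17 of 44 member windows (38.6%, 16 genes), against 8.86% of all 32851 promoter windows. CCAAT, the element of the factor NF-Y, was found in 34.1% of member windows and 37.4% of all windows. TGACNNNGC was in 13.6% of member windows and 12.4% of all, and the related TGAGNNNGC in 31.8% and 17.6%. GGAAGTG, which can share bases with CCGGAAG, was in 18.2% and 11% of them. The motifs were picked with the array data already seen, and a match says only that these letters are present. The called gene Psmd6 has CCGGAAG in common with 15 other members, of which none was called. Of all genes, 0.275% to 1.32% were called per comparison, so 15 genes would hold few or no calls at those shares.

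As a group the proteasome genes differed little between genotypes. In the Q111 effect with mGluR5, 22 of the 47 tested members were positive and 25 negative (46.8% positive, against 45.9% of all genes). The median was -0.01 against -0.01 over all genes. A single member, Psmd6, was called (2.13% of members), beside 0.574% of all tested genes, and it was also the only member with an unadjusted p below 0.05, beside 6.84% of genes. In the Q111 effect without mGluR5 the median was -0.08 against -0.02 over all genes. Of the members, 15 were positive and 32 negative (31.9% positive, against 43.3% of all genes). No member was called there by limma, beside 0.885% of all genes, and 6 members had an unadjusted p below 0.05 (12.8%, against 9.44% of all genes). In the average Q111 effect, Psmd6 was again the single member called, beside 1.32% of all genes, and the median was -0.03 against -0.02. At an unadjusted p below 0.05 there were 3 members, Psmd6, Psmc1 and Psmd11 (6.38%, against 11.4% of genes).

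Most members had small positive differences with mGluR5 loss, none of them called, and most of all tested genes were positive too. In Q20 mice 34 of 47 members were positive (72.3%, against 57% of all genes), with a median of 0.08 against 0.02 over all genes. In Q111 mice 31 members were positive (66%, against 52.6% of all genes), with a median of 0.04 against 0.01. No member was called by limma in either, beside 0.299% of genes in Q20 and 0.275% in Q111 mice. At an unadjusted p below 0.05 there were 8 members in Q20 mice (17%, against 6.02% of genes) and 0 in Q111 mice (against 4.36% of genes). The average mGluR5 loss and the interaction called no member by limma either, beside 0.293% and 0.437% of genes. Their counts at an unadjusted p below 0.05 were 5 (10.6%, against 5.32% of genes) and 4 (8.51%, against 5.37%). The authors' own criteria, an unadjusted p below 0.05 with a change of at least 1.5-fold, took Psmd6 in the Q111 effect with mGluR5, beside 0.58% of genes, and no member in the other 6 comparisons. There they took 0.67% of genes in the Q111 effect without mGluR5, 0.395% for loss in Q20, 0.347% for loss in Q111, 0.987% in the interaction, 0.305% in the average Q111 effect and 0.102% in the average loss. The same model without moderation, with adjusted p-values, called no member, beside 0.209%, 0.544%, 0.114%, 0.138%, 0.114%, 0.736% and 0.138% of genes in the Q111 effect with mGluR5, without it, the loss in Q20, the loss in Q111, the interaction and the average Q111 effect and loss.

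The precision bounds what these arrays could have missed. In the average Q111 effect the 95% intervals of all 46 uncalled members lay inside a 1.5-fold change in either direction. The same was true of all 47 members in the average mGluR5 loss. In single comparisons the intervals of 42 to 45 members lay inside it, and 36 did in the interaction. Psmb11 and Psmg3, both of low signal, reached past it in all 4 single comparisons and in the interaction.

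**Figure D1:**
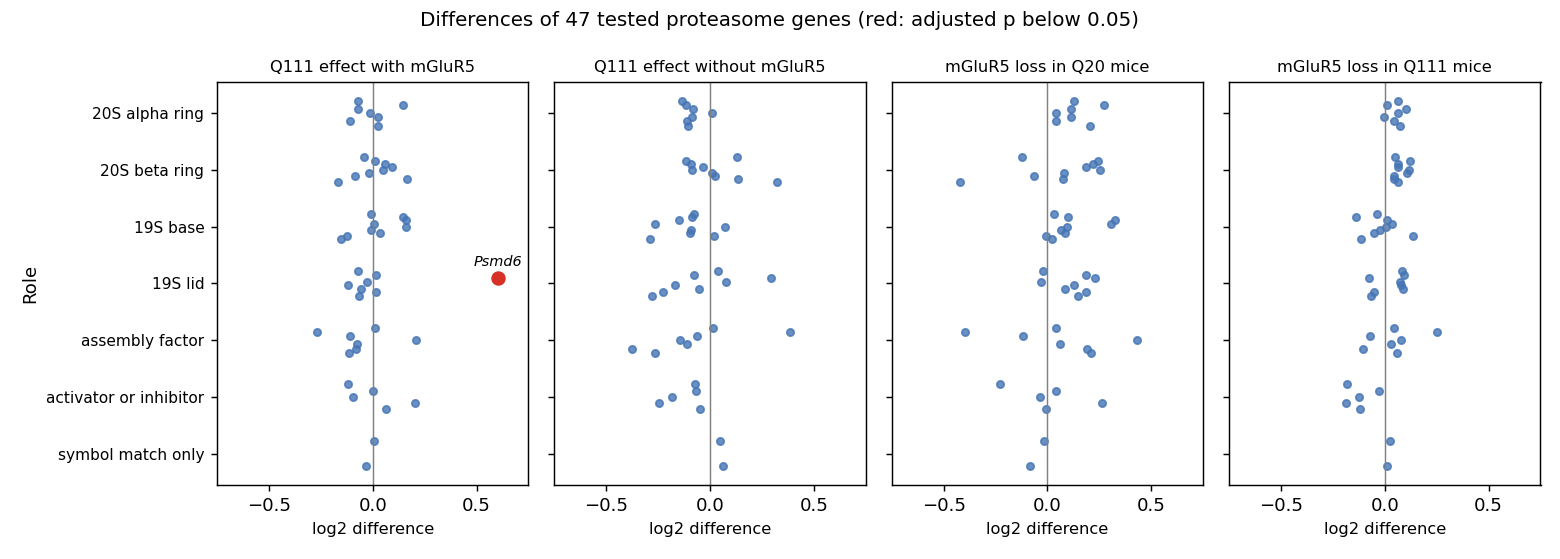
Log2 differences (horizontal axes, first group minus second) of the 47 tested proteasome genes in 4 comparisons, with 1 row per role and 1 point per gene; red marks an adjusted p below 0.05. Psmd6, at 0.60 in the Q111 effect with mGluR5, is the only called point.

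Of the 19S lid, Psmd6 was higher in Q111 mice than in Q20 mice. Psmd6 encodes Rpn7, a scaffold subunit of the lid. It read 9.04, 9.16 and 9.01 in Q111 mGluR5-/- arrays and 8.94, 9.37 and 9.13 in Q111 mGluR5+/+ arrays. In Q20 mGluR5-/- arrays it read 8.73, 8.88 and 8.72, and in Q20 mGluR5+/+ arrays 8.43, 8.59 and 8.63. All 6 Q111 arrays thus lay above all 6 Q20 arrays, a separation that 0.437% of all genes showed in this direction.

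With mGluR5 present, Psmd6 was 1.52-fold higher in Q111 than in Q20 mice (0.60 ± 0.11, 95% interval 0.37 to 0.84, limma adjusted p = 0.0188). Without mGluR5 the difference was 0.29 ± 0.11 (interval 0.06 to 0.53, adjusted p = 0.375) and was not called. The interaction was -0.31 ± 0.16 (adjusted p = 0.994), so the 2 Q111 effects were not shown to differ. Averaged over both, Psmd6 was 1.36-fold higher (0.45 ± 0.08, interval 0.28 to 0.61, adjusted p = 0.00858). mGluR5 loss gave 0.23 ± 0.11 in Q20 mice (adjusted p = 0.843).

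Single arrays decided the call with mGluR5 present. It was lost without any of the 3 Q20 mGluR5+/+ arrays (adjusted p = 0.0964, 0.0721 and 0.0626 without replicates 1, 2 and 3) and without Q111 mGluR5+/+ replicate 3 (0.0532), at differences of 0.54 to 0.64. It was also lost without the 2 arrays of widest and narrowest signal spread (0.61, adjusted p = 0.0575). With 1 array left out, the difference was lowest without Q111 mGluR5+/+ replicate 2, at 0.49, below the authors' 1.5-fold minimum (0.585). It was highest without replicate 1 of the same group, at 0.70. The average Q111 effect was called whichever array was left out (adjusted p 0.00507 to 0.0331), but lies below the authors' 1.5-fold minimum. The same model without moderation did not call Psmd6, with mGluR5 present or in the average Q111 effect.

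**Figure D2:**
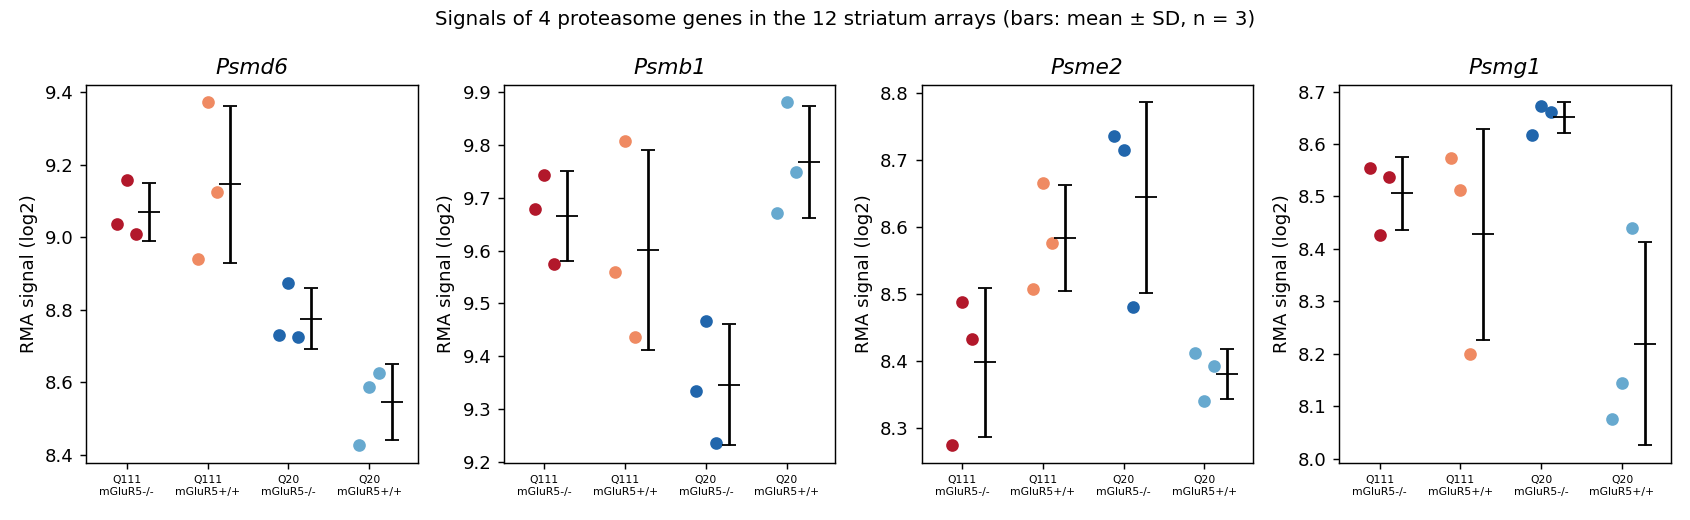
RMA signal (log2, vertical axes) of Psmd6, Psmb1, Psme2 and Psmg1 in each array of the 4 groups; points are arrays and bars the mean ± SD of 3. Psmd6 lies at 8.94 or above in every Q111 array and at 8.88 or below in every Q20 array, and the other 3 genes overlap between Q111 and Q20.

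The other 7 lid subunits did not follow Psmd6. Their differences in the average Q111 effect ran from -0.17 to 0.03, with interval bounds between -0.35 and 0.17 and adjusted p of 0.437 or more. Psmd11, another lid scaffold and the lowest of them, averaged 9.002 ± 0.16 over 6 Q111 arrays and 9.17 ± 0.12 over 6 Q20 arrays (SD), a difference of -0.17 ± 0.08 (adjusted p = 0.437). Psmd14, the deubiquitinating enzyme of the lid, had -0.14 ± 0.08 (adjusted p = 0.539). Psmd3, Psmd7, Psmd8, Psmd12 and Psmd13 lay between -0.11 and 0.03. In the average mGluR5 loss all 8 lid subunits were positive, at 0.02 to 0.14, and none was called. In that comparison 74.5% of members and 57% of all genes were positive.

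Some genes in the neighbourhood of Psmd6 on the chromosome also differed between Q111 and Q20 mice, though not those closest to it. Of the 10 tested genes on either side in RefSeq order, a window chosen after Psmd6 had been called, 4 of 20 were called in the average Q111 effect (20%, beside 1.32% of all genes). Oxsm, a mitochondrial fatty acid synthesis enzyme, was higher in Q111 mice by 0.53 ± 0.07 (adjusted p = 0.00135). Cfap20dc was higher by 0.42 ± 0.08 (adjusted p = 0.0128) and Thrb, a thyroid hormone receptor, by 0.37 ± 0.07 (adjusted p = 0.0143). Fhit was lower, at -0.37 ± 0.08 (adjusted p = 0.0401). Counted from Psmd6, Oxsm and Thrb were genes 5 and 9 on one side, and Fhit and Cfap20dc genes 9 and 10 on the other.

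The immediate neighbours were not called: Atxn7 had 0.18 ± 0.08 (adjusted p = 0.38) and Olfr720 0.21 ± 0.11 (adjusted p = 0.489). The mice were of mixed strain background, and the arrays carry no genotypes outside the engineered loci. An effect of the Q111 allele and a difference in strain alleles around Psmd6 therefore cannot be told apart.

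**Figure D3:**
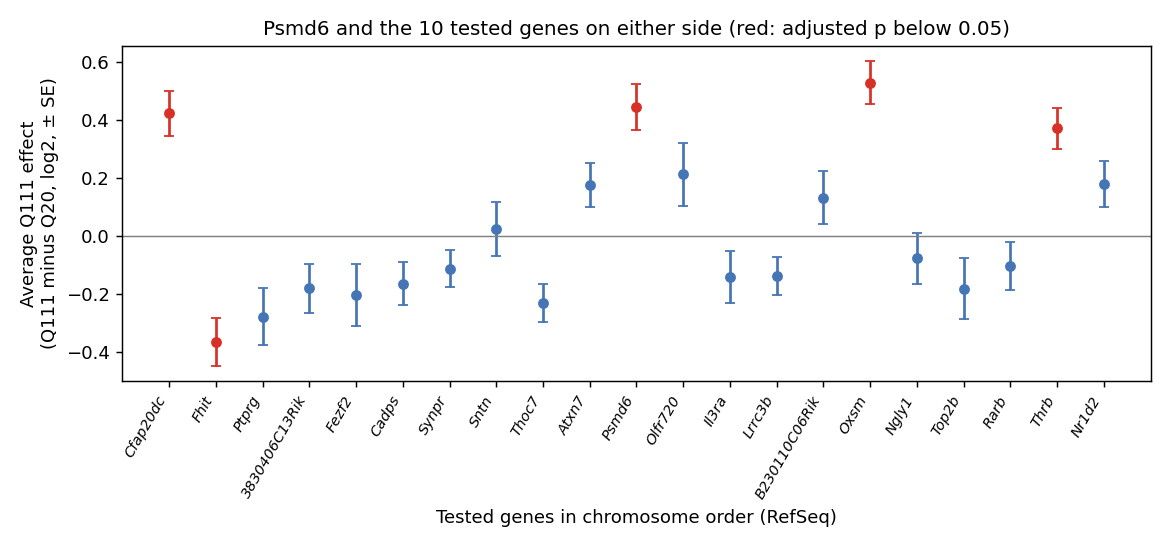
Average Q111 effect (Q111 minus Q20, log2, ± SE) of Psmd6 and the 10 tested genes on either side, in chromosome order; red marks an adjusted p below 0.05. Oxsm, Psmd6, Cfap20dc and Thrb are called above 0 and Fhit below it, with uncalled genes between them.

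In the 20S core, the 3 catalytic subunits of the standard proteasome were not called in any comparison. Psmb5, which cuts after hydrophobic residues, averaged 11.42 ± 0.15 in Q111 mGluR5-/-, 11.36 ± 0.19 in Q111 mGluR5+/+, 11.52 ± 0.15 in Q20 mGluR5-/- and 11.30 ± 0.21 in Q20 mGluR5+/+ arrays (SD, n = 3 each). Psmb6, which cuts after acidic residues, read 9.58, 9.78 and 9.77 in Q111 mGluR5-/- arrays and 9.65, 9.68 and 9.43 in Q111 mGluR5+/+ arrays. In Q20 mGluR5-/- arrays Psmb6 read 9.76, 10.001 and 9.72, all above the 9.43, 9.71 and 9.59 of Q20 mGluR5+/+ arrays. Its average mGluR5 loss was 0.18 ± 0.08 (adjusted p = 0.861). Psmb7, which cuts after basic residues, varied most of the 3 and read 9.34 to 10.13 over the 12 arrays. The average Q111 effects of these catalytic genes ran from -0.05 to 0.04, with interval bounds between -0.22 and 0.31.

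Psmb1, a structural beta subunit, had the lowest p of the members for mGluR5 loss in Q20 mice. It read 9.34, 9.47 and 9.24 in Q20 mGluR5-/- arrays, against 9.67, 9.88 and 9.75 in Q20 mGluR5+/+ arrays, with no overlap. In Q111 mice the groups overlapped, at 9.68, 9.74 and 9.58 without mGluR5 and 9.56, 9.81 and 9.44 with it. The loss in Q20 mice was -0.42 ± 0.11 (interval -0.65 to -0.19, adjusted p = 0.17), and the Q111 effect without mGluR5 was 0.32 ± 0.11 (adjusted p = 0.283). The interaction was 0.49 ± 0.15 (adjusted p = 0.463) and the average loss -0.18 ± 0.08 (adjusted p = 0.866). None of these was called.

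The values of Psmb1 did pass the threshold under some other processing, though not under most. The loss in Q20 mice was called in 3 of 9 other settings and stayed uncalled in 6. With any of the 12 arrays left out it was not called (adjusted p 0.0599 or more). With the interquartile range of each array as a covariate, the loss in Q20 mice was -0.45 (adjusted p = 0.00148), the Q111 effect without mGluR5 0.41 (0.00272), the interaction 0.51 (0.00729) and the average loss -0.20 (0.0437). Within groups, Psmb1 had the highest correlation of all members with this range, 0.994. After quantile normalization of the deposited values the loss in Q20 mice was -0.44 (adjusted p = 0.0188) and the Q111 effect without mGluR5 0.37 (0.0305). Of the 20 tested neighbours of Psmb1, 1 was called for mGluR5 loss in Q20 mice, beside 0.299% of all genes: Thbs2, an extracellular matrix protein gene, at 0.71 (adjusted p = 0.00103). In the Q111 effect without mGluR5 2 of them were called, beside 0.885% of all genes: BC002059 at -0.95 (adjusted p = 0.00198) and Thbs2 at -0.51 (adjusted p = 0.00756). BC002059 was also called in the average Q111 effect, at -0.60 (adjusted p = 0.00396). Pdcd2, the second gene on one side, had -0.38 for mGluR5 loss in Q20 mice (adjusted p = 0.084). In the Q111 effect without mGluR5 Pdcd2 had 0.35 (adjusted p = 0.0796), and neither was called. Strain alleles around Psmb1 and the genotypes compared cannot be told apart here either.

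The other beta subunits stayed uncalled. Psmb10, the catalytic subunit that replaces Psmb7 in immunoproteasomes, averaged 7.62 ± 0.16, 7.57 ± 0.15, 7.48 ± 0.24 and 7.41 ± 0.30 in the Q111 mGluR5-/-, Q111 mGluR5+/+, Q20 mGluR5-/- and Q20 mGluR5+/+ groups (SD, n = 3 each), and its average Q111 effect was 0.15 ± 0.11 (adjusted p = 0.649). Psmb11, the thymus-specific subunit, had group means of 6.16 to 6.25, close to the filter. All 9 beta subunits were positive for mGluR5 loss in Q111 mice, at 0.04 to 0.12, while 31 of all 47 members and 52.6% of all genes were.

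The alpha ring, which gates entry to the core, showed small positive values for mGluR5 loss. In Q20 mice all 7 tested alpha genes were positive, at 0.04 to 0.27 with a median of 0.11, while 57% of all genes were positive. Psma6 was the highest of them, at 9.80, 9.80 and 9.76 in Q20 mGluR5-/- arrays against 9.34, 9.60 and 9.59 in Q20 mGluR5+/+ arrays (0.27 ± 0.12, adjusted p = 0.761). Psma5 had 8.46, 8.48 and 8.51 in Q111 mGluR5-/- arrays, all above the 8.39, 8.44 and 8.31 of Q111 mGluR5+/+ arrays (0.10 ± 0.08, adjusted p = 1). A second probe set of Psma5, of lower mean signal (7.24 against 8.47), went the other way, at -0.09 ± 0.10. In the average Q111 effect the 7 genes ran from -0.11 to 0.01. None was called in any comparison.

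In the 19S base, no ATPase and no scaffold gene was called. Psmc1, an ATPase subunit, had the lowest p of the base for the average Q111 effect. It read 9.17, 9.13 and 8.89 in Q111 mGluR5-/- and 9.23, 9.43 and 8.87 in Q111 mGluR5+/+ arrays, against 9.31, 9.41 and 9.33 in Q20 mGluR5-/- and 9.27, 9.46 and 9.26 in Q20 mGluR5+/+ arrays. Of the 6 Q111 arrays, 5 lay below every Q20 array, and the difference was -0.22 ± 0.09 (interval -0.41 to -0.03, adjusted p = 0.355). A second probe set of Psmc1 gave -0.17 ± 0.07.

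Psmd1, a large scaffold of the base, read 10.55, 10.47 and 10.54 in Q20 mGluR5-/- arrays, against 10.14, 10.32 and 10.12 in Q20 mGluR5+/+ arrays. The groups did not overlap, and the loss in Q20 mice was 0.32 ± 0.11 (interval 0.09 to 0.56, adjusted p = 0.521). Psmd2, the other large scaffold, read 10.55, 10.57 and 10.56 in Q111 mGluR5-/- arrays, all below the 10.59, 10.83 and 10.67 of Q111 mGluR5+/+ arrays (-0.14 ± 0.10, adjusted p = 1). A second probe set of Psmd2, of similar mean signal (10.53 against 10.61), gave only -0.02 ± 0.09. Psmd4, a ubiquitin receptor, and the ATPase genes Psmc2 to Psmc6 ran from -0.13 to 0.12 in the average Q111 effect.

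Of the assembly factors, Psmg1 was the member with the lowest p for the average mGluR5 loss. Psmg1 encodes a chaperone that helps form the alpha ring. It read 8.62, 8.67 and 8.66 in Q20 mGluR5-/- arrays, against 8.08, 8.14 and 8.44 in Q20 mGluR5+/+ arrays, with no overlap. In Q111 mice the groups overlapped, at 8.56, 8.43 and 8.54 without mGluR5 and 8.57, 8.51 and 8.20 with it. The loss in Q20 mice was 0.43 ± 0.12 (interval 0.19 to 0.68, adjusted p = 0.209) and the average loss 0.26 ± 0.08 (adjusted p = 0.469).

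Psmg3, a further chaperone of the core, gave the widest difference among the interactions, 0.65 ± 0.26 (interval 0.11 to 1.20, adjusted p = 0.767). It read 6.96, 6.63 and 6.97 in Q111 mGluR5-/- and 6.61, 6.30 and 6.88 in Q111 mGluR5+/+ arrays, against 6.78, 6.06 and 6.56 in Q20 mGluR5-/- and 7.10, 6.76 and 6.73 in Q20 mGluR5+/+ arrays. In Q111 mice the groups with and without mGluR5 overlapped, and in Q20 mice they overlapped between 6.73 and 6.78. Psmd5, Psmd9 and Psmd10, chaperones of the base, had average Q111 effects of -0.23 ± 0.11, -0.09 ± 0.08 and -0.19 ± 0.10 (adjusted p of 0.439 or more). Psmg2 and Psmg4 were not called either.

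Among activators and inhibitors, Psme2 had the lowest p of all members for the interaction. Psme2 encodes the beta subunit of PA28, an interferon-inducible cap that activates the core. It read 8.27, 8.49 and 8.43 in Q111 mGluR5-/- arrays, all below the 8.51, 8.67 and 8.58 of Q111 mGluR5+/+ arrays. In Q20 mice the order was the opposite, at 8.74, 8.71 and 8.48 without mGluR5 and 8.41, 8.34 and 8.39 with it, again with no overlap. The interaction was -0.45 ± 0.14 (interval -0.74 to -0.16, unadjusted p = 0.00497, limma adjusted p = 0.407) and was not called. The single effects were -0.19 ± 0.10 for loss in Q111 mice (adjusted p = 1) and 0.26 ± 0.10 for loss in Q20 mice (adjusted p = 0.591).

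Psme1, the alpha subunit of the same PA28 cap, did not share the pattern of Psme2: its loss in Q20 mice was -0.01 ± 0.13. All 5 genes of this group, which also holds the nuclear activator Psme3, the activator Psme4 and the inhibitor Psmf1, were negative for mGluR5 loss in Q111 mice (-0.19 to -0.03) and in the Q111 effect without mGluR5 (-0.25 to -0.05). Of all genes, 52.6% were positive for this loss and 43.3% in this Q111 effect. None of the 5 was called in any comparison. Psmc3ip and Psme3ip1, matched by symbol alone, had average Q111 effects of 0.02 ± 0.06 and 0.03 ± 0.06.

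Groups that did not overlap were counted for all members. For mGluR5 loss in Q20 mice 10 members were higher in every array (21.3%, against 7.89% of genes) and 2 lower (4.26%, against 4.92%). The 10 were Psma3, Psma6, Psmb6, Psmc3, Psmc6, Psmd1, Psmd6, Psmd7, Psme2 and Psmg1, and the 2 were Psmb1 and Psmc3ip. In Q111 mice 1 was higher, Psma5 (2.13%, against 3.77%), and 2 lower, Psmd2 and Psme2 (4.26%, against 3.69%). In the Q111 effect with mGluR5 Psmc5, Psmd6 and Psme2 were higher (6.38%, against 4.39%) and none was lower (against 5.3%). Without mGluR5 Psmb1 and Psmd6 were higher (4.26%, against 6.07%). Lower were Psma6, Psmc1, Psmc3, Psmd10, Psmd11 and Psmg1 (12.8%, against 13%). The share stood well above that of all genes in 1 of these, the higher members with mGluR5 loss in Q20 mice. Members varied together from array to array, as given below, so these 10 are not independent. Genes of similar signal were not counted separately.

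Other measures moved with the same groups, in particular with Q20 mGluR5-/- arrays. List means of microglial markers lay at 8.29 to 8.53 in Q20 mGluR5-/- arrays, against 8.26 to 8.33 in Q20 mGluR5+/+ arrays (8 of 8 markers tested). Vascular markers lay at 7.65 to 7.71 in Q20 mGluR5-/- arrays, against 7.49 to 7.61 in Q20 mGluR5+/+ arrays (9 of 9 markers tested). Choroid plexus markers lay at 6.54 to 7.10 in Q20 mGluR5-/- and 6.22 to 6.89 in Q20 mGluR5+/+ arrays (5 of 5 tested), and no list was at 0. Projection neuron markers lay at 11.35 to 11.39 in Q20 mGluR5-/- arrays, against 11.24 to 11.32 in Q20 mGluR5+/+ arrays (8 of 10 tested). Between these groups the vascular and projection neuron lists did not overlap. The microglial, choroid plexus, oligodendrocyte and astrocyte lists overlapped. A single one of the 43 markers, a vascular one, was called for mGluR5 loss in Q20 mice, beside 0.299% of all genes. In the Q111 effect without mGluR5, 4 of the 6 lists did not overlap. Vascular markers lay at 7.42 to 7.54 in Q111 mGluR5-/- arrays, against 7.65 to 7.71 in Q20 mGluR5-/- arrays, and microglial markers at 8.19 to 8.26, against 8.29 to 8.53. Choroid plexus markers lay at 6.32 to 6.47 in Q111 mGluR5-/- arrays, against 6.54 to 7.10 in Q20 mGluR5-/- arrays, and projection neuron markers at 11.29 to 11.31, against 11.35 to 11.39. The part of these lists in the differences of the proteasome genes was not tested.

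Proteasome genes varied together from array to array within groups, along with the spread of the whole array. The interquartile range of an array, the width of the middle part of its signals, was 2.74 ± 0.07 in Q111 mGluR5-/-, 2.73 ± 0.19 in Q111 mGluR5+/+, 2.83 ± 0.12 in Q20 mGluR5-/- and 2.80 ± 0.08 in Q20 mGluR5+/+ arrays. The mean signal of the 47 members was 9.01 ± 0.03, 8.996 ± 0.13, 9.07 ± 0.10 and 8.99 ± 0.07 in the same groups (SD, n = 3 each). Q20 mGluR5-/- replicate 2 had both the widest range, 2.95, and the highest member mean, 9.17. Q111 mGluR5+/+ replicate 3 had the narrowest range, 2.56, and the lowest member mean, 8.88. In every group, replicate 2 had the widest range (2.80 to 2.95) and the highest member mean (9.04 to 9.17).

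**Figure D4:**
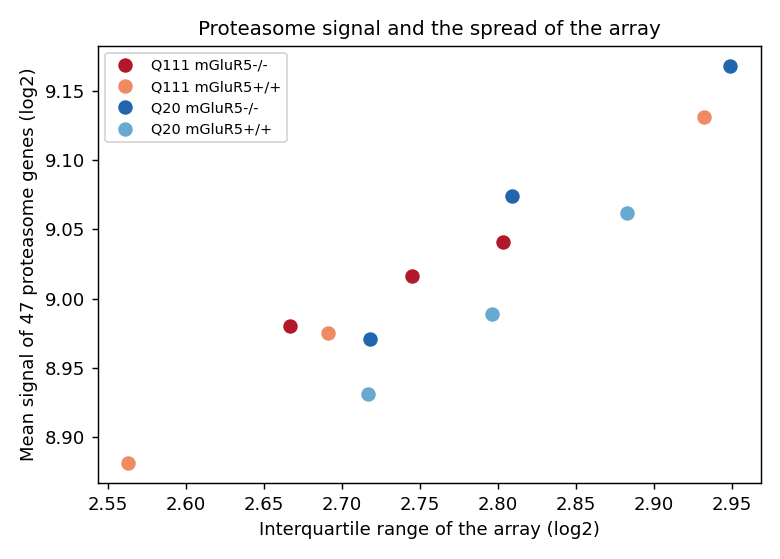
Mean signal of the 47 tested proteasome genes (log2, vertical axis) against the interquartile range of the same array (log2, horizontal axis), 1 point per array, coloured by group. The array at 2.56 has the lowest mean, 8.88, and the array at 2.95 the highest, 9.17, and the 4 groups overlap along both axes. In each group the array of widest range and highest mean is replicate 2.

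Gene by gene, the correlation with the interquartile range after removal of group means had a median of 0.74 over the 47 members, and 93.6% were positive. Over all tested genes the median was 0.31, and over the 3906 genes within the members' middle signal range it was 0.68. These are descriptions over 12 arrays in which every gene shares the array. Psmb11 at -0.88 and Psmg3 at -0.83, both of low signal, ran opposite to the rest.

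Between pairs of members the within-group correlation had a median of 0.49 (1081 pairs, 84.6% positive), against 0.02 among 2000 tested genes and 0.39 among 2000 genes of similar signal. For the subunits of the 20S and 19S alone, without Psmb10 and Psmb11, the median was 0.61. With the interquartile range removed from each gene, the median was 0.004 for members and 0.006 for the 2000 genes. The members' shared movement within groups was thus no longer seen once the array spread was taken out.

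**Figure D5:**
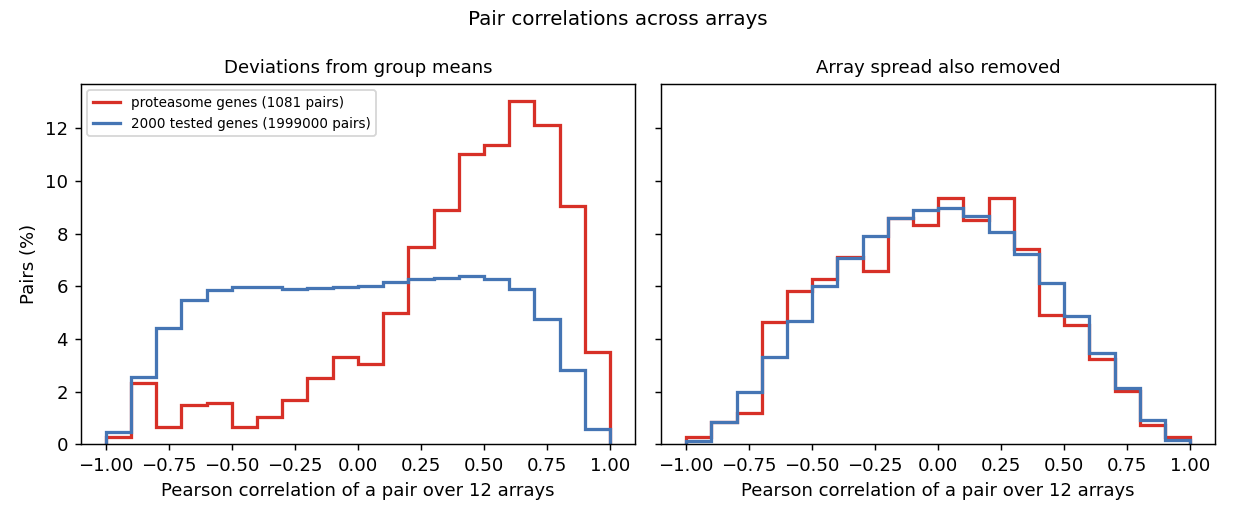
Distribution of within-group correlations between pairs of genes (horizontal axis, correlation; vertical axis, percent of pairs) for the proteasome genes and for 2000 tested genes, before and after the interquartile range of each array was removed. Before removal the proteasome pairs centre on 0.49 and the others on 0.02, and after removal both centre near 0.

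Genes that work with the proteasome were measured too. Of 37 listed genes of ubiquitin recognition, proteasome maturation, transcriptional control and antigen processing, 27 were tested and 0 were called by limma in any of the 7 comparisons, with at most 1 below an unadjusted p of 0.05 in a comparison. Of all genes, 0.275% to 1.32% were called and 4.36% to 11.4% had an unadjusted p below 0.05, so a list of 27 would hold few or no calls at those shares. Nfe2l1, the transcription factor of the subunit genes, had group means of 9.89, 10.02, 9.93 and 9.94 in Q111 mGluR5-/-, Q111 mGluR5+/+, Q20 mGluR5-/- and Q20 mGluR5+/+ mice. Rad23b, which delivers ubiquitinated proteins, had the lowest p for the average Q111 effect, at -0.12 ± 0.07 (adjusted p = 0.569). Psmb8, an immunoproteasome subunit, had the lowest p for the average mGluR5 loss, at 0.16 ± 0.07 (adjusted p = 0.931), at group means of 5.75 to 6.04 close to the filter. Psmb9, its partner, had 0.13 ± 0.08, and Vcp, the segregase that hands substrates to the proteasome, had 0.11 ± 0.07 (adjusted p = 1 for both).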

How the data were processed

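The table deposited by the authors holds log2 signals from RMA, per the submitters' processing notes, which name Partek and RMA without versions; the series description names Partek Genomics Suite 6.5. RMA corrects background, equalizes the arrays' probe distributions and summarizes each probe set, so differences are relative to the array as a whole. The array had 35556 probe sets, of which the platform annotation gave 21789 a single gene symbol, 1621 several and 12146 none. Each gene was represented by its probe set of highest mean. Genes above their array's 25th percentile in at least 3 arrays were tested.

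limma 3.58.1 in R 4.3.3 fitted 1 mean per group over all 12 arrays (8 residual degrees of freedom, prior 6.88), two-sided, with Benjamini-Hochberg adjustment over 16721 genes. The code was tested on simulated data. Precision is limited by the number of arrays. Alternatives covered the authors' criteria, the filter, normalization, centring, probe set choice, variance model, array spread, replicate number and leaving out arrays.

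Differences are singled out for members called in a comparison and for the 3 members of smallest unadjusted p in each of 7 comparisons; for other members they illustrate a role. Of the partner list, genes called and those of smallest p were to be named; Nfe2l1 was added as the regulator. The members and lists were chosen with earlier results of these data known. RefSeq (GRCm38.p6) gave promoters and neighbours. Plots used matplotlib 3.10.9 in Python 3.11.15.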

Additional observations from a re-analysis of the deposited data

How the results depend on the processing

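Of 882 values recomputed under other settings, 799 kept their direction and their side of the threshold, or moved by less than the set limits, and none changed sign while called. The medians of the proteasome genes lie near 0 and turned sign in 3 comparisons. With single arrays left out they ran from -0.087 to 0.036 in the Q111 effect with mGluR5 and from -0.036 to 0.108 for loss in Q111, and under the other settings the average Q111 effect ran from -0.043 to 0.022. The interaction kept its sign, at -0.128 to -0.012 with single arrays left out. In the order Q111 effect with mGluR5, Q111 effect without mGluR5, loss in Q20, loss in Q111, interaction, average Q111 effect and average loss, the interquartile range as a covariate called 266, 353, 213, 150, 153, 488 and 170 genes, against 96, 148, 50, 46, 73, 221 and 49. With this covariate 2 proteasome genes were called in the Q111 effect without mGluR5 (Psmb1 and Psmd6), and 1 (Psmb1) in the loss in Q20, the interaction and the average loss. Quantile normalization called 1 proteasome gene in the Q111 effect without mGluR5, and 1 proteasome gene among 76 genes for loss in Q20 (Psmb1 in both). An intensity trend called 84 genes for loss in Q20. The authors' criteria took 165 genes in the interaction, 51 in the average Q111 effect with 0 proteasome genes, and 17 in the average loss. Without Q20 mGluR5-/- replicate 2 and Q111 mGluR5+/+ replicate 3, a setting chosen after seeing the data, 0 proteasome genes were called in the Q111 effect with mGluR5 (Psmd6 at 0.61, adjusted p = 0.0575). This setting, with fewer arrays, called 93 genes in the Q111 effect without mGluR5, 33 for loss in Q20, 37 in the interaction, 144 in the average Q111 effect and 32 in the average loss. Leaving out single arrays gave 44 to 127, 73 to 232, 25 to 97, 28 to 50, 35 to 67, 118 to 511 and 29 to 59 genes in the same order, and 0 to 1 proteasome genes in the Q111 effect with mGluR5. In every comparison the highest of these counts came without Q111 mGluR5+/+ replicate 2. In the average Q111 effect it was 511 against 221, and in the interaction it was 67, below 73. The cause of these shifts was not tested.

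The labels number the replicates in each group. Of 18 pairs of same-numbered arrays, 11 correlated above 0.1 in their deviations from the group means (-0.14 to 0.57). The median was 0.28, against -0.085 for arrays of different numbers, the replicate 2 pairs lay at 0.34 to 0.57, and 9 of 12 arrays correlated best with an array of their own number. This is a hint of shared numbers from the data. Since the labels do not say what the number marks and 7 of the 18 pairs did not exceed 0.1, the numbers were not taken to pair the arrays. Replicate 2 also had the widest interquartile range in every group, so replicate number and array spread cannot be fully told apart. With the replicate number as a block, 204, 343, 129, 103, 487 and 79 genes were called in the Q111 effect with mGluR5, without it, the loss in Q20, the loss in Q111, the average Q111 effect and the average loss. The block called 1 proteasome gene for loss in Q20, Psmb1 (-0.42, adjusted p = 0.0242).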
